A study of Mus musculus with 10 samples.

Results

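Sfrp1, Nlk and Gnb1 are 3 signalling genes with 1 probe set each among the 96 probe sets that the authors' deposited table lists as different between Evf2 mutant and wildtype medial ganglionic eminence (MGE). They were chosen by that table's own values, a corrected p of at most 0.05 and a fold change of at least 2 for mutant against wildtype, and by their roles in Wnt and G protein signalling. The table names 58 distinct genes, and the whole array has 45101 probe sets, of which 64 are controls. Differences between genotypes are therefore given below as a description, with no test of them. Tests are given for sex, which the choice did not use.

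The wildtype group is Evf2+/+ and the mutant group is Evf2TS/TS, an allele that lacks expression of Evf2, a long non-coding RNA made across the Dlx5/6 enhancers. Both groups are E13.5 mouse embryos on the same mixed background of 129Sv, Bl6 and Fvbn, with no treatment named. Each of the 10 pools held 4 MGE from 2 embryos. Wildtype had 3 female and 2 male pools, and mutant had 2 female and 3 male pools. Each gives 1 Affymetrix array value per probe set in linear signal units, and the number of arrays limits the precision. The MGE is the ventral forebrain region that produces most cortical interneurons. In such whole tissue, fewer cells of a type and less RNA per cell cannot be told apart. Pools of different embryos were taken as the replicates, so each p rests on the spread from pool to pool.

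In Wnt signalling, secreted ligands bind Frizzled receptors and LRP co-receptors, β-catenin is stabilised, and it acts in the nucleus with TCF/LEF factors. Secreted Frizzled-related proteins such as Sfrp1 bind Wnt ligands outside the cell, and the kinase Nlk (nemo-like kinase) phosphorylates TCF/LEF factors inside it. Gnb1 encodes a β subunit of heterotrimeric G proteins, which pairs with a γ subunit and carries signals from G protein-coupled receptors to effectors. In the developing forebrain, Wnt signals help to set dorsal and ventral identity and the balance between proliferation and differentiation.

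Mutant pools lacked most of the Evf2 signal, as labelled: Dlx6os1, for which RefSeq gives Evf2 as another name, read 609 ± 177 in the wildtype group (SD, n = 5) against 22.4 ± 20.2 in the mutant group (SD, n = 5). Any pair of arrays correlated with r between 0.969 and 0.989 across non-control probe sets, which are not independent replicates. Of the 10 pools, 3 stood apart from the rest in some measure. Of the mutant pools, replicate 4 came closest to the wildtype mean at 77 of 96 listed probe sets. Replicate 5 of the mutant group had 298 probe sets more than 2-fold below every other array, counted on signal + 16, against at most 16 on any other. The actin 3′ to 5′ ratio of that pool, 1.41, was above the others (1.257 to 1.381). Wildtype replicate 3 had the highest median signal (29.3). On the same signal + 16 scale it had 26 probe sets more than 2-fold above every other array, against at most 3 on any other. Gene names came only from the deposited table, so of 35 markers of the MGE and of other tissues only Dlx6 could be read. It stood at 316 ± 36.4 in wildtype and 737 ± 186 in the mutant group (SD, n = 5 each). The groups did not overlap there, as at 3.07% of all probe sets. Dlx6 was named only because it was listed on this same contrast, so nothing is read from that and it cannot check the dissection. The dissection could therefore not be checked by markers, and the part of tissue make-up in the values below was not tested.

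Promoter sequence was available from RefSeq (GRCm38.p6) for Nlk and Gnb1, the 2 genes whose signal was higher in the mutant. No window was available for Sfrp1. Each window runs from 250 bases before to 50 after the start used in that sequence table, 5′ to 3′ on the gene's strand. For Gnb1 and Nlk that start is not the outermost base that RefSeq gives for the gene. The Nlk window is chr11:78697376-78697675 on the minus strand and the Gnb1 window is chr4:155491111-155491410 on the plus strand. Capitals mark matches, on either strand, to CAAAG (the TCF/LEF core), TAATT (a homeodomain core of the kind that Dlx factors bind) or GGGCGG (the GC box). These 3 motifs were picked for this description, and 2 of the GC box matches in the Gnb1 window overlap each other.
Nlk: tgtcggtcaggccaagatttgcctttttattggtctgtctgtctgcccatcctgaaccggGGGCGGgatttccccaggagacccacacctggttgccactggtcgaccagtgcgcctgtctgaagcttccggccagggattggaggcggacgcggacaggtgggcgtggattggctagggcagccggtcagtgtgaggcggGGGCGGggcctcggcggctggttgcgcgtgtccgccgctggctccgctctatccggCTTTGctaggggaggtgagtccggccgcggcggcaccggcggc
Gnb1: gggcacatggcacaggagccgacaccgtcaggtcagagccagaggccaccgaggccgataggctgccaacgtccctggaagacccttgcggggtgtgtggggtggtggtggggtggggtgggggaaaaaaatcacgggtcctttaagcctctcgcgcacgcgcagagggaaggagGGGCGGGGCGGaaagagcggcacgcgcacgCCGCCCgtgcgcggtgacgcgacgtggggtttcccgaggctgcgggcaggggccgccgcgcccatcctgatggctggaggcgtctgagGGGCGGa

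Both windows were rich in CpG, with 27 CG dinucleotides for Nlk and 31 for Gnb1 against a median of 7 over 32851 windows of 300 bases. The GC box was matched 2 times for Nlk and 4 times for Gnb1, and 35.7% of all windows hold it. The TCF/LEF core was matched 1 time for Nlk and 0 times for Gnb1, where 53.9% of all windows hold it. The homeodomain core, held by 27.0% of all windows, was matched in neither. A match is a description of these letters only.

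Sfrp1, which binds Wnt ligands in the extracellular space, was lower in the mutant. Its probe set 1448395_at read 463, 392, 507, 492 and 591 signal units in wildtype replicates 1 to 5. It read 149, 161, 140, 289 and 111 in mutant replicates 1 to 5. All mutant pools lay below all wildtype pools, and mutant replicate 4 was the highest of them. Group means were 489 ± 72.1 in wildtype and 170 ± 68.8 in the mutant (SD, n = 5 each), so wildtype was 2.88 times the mutant. On the log2(signal + 16) scale, with sex as a term, the difference was -1.53 ± 0.21 (SE). It was -1.69 without mutant replicate 4, -1.41 without mutant replicate 5, -1.59 without both and -1.50 without wildtype replicate 3.

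Nlk, the kinase that acts on TCF/LEF factors, was higher in the mutant. Its probe set 1419112_at read 535, 674, 641, 399 and 288 in wildtype replicates 1 to 5. It read 1537, 1192, 1193, 830 and 1169 in mutant replicates 1 to 5. The groups did not overlap, the lowest wildtype pools were the 2 males, and the lowest mutant pool was again replicate 4. Means were 507 ± 163 and 1184 ± 250.2 (SD, n = 5 each), a ratio of 2.33, and the log2 difference was 1.35 ± 0.16 (SE). It was 1.41 without mutant replicate 4, 1.30 without mutant replicate 5, 1.35 without both and 1.39 without wildtype replicate 3.

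Gnb1, the G protein β subunit, had a probe set that was near background in wildtype and measurable in the mutant. Its probe set 1425908_at read 1.19, 6.47, 11.5, 2.56 and 9.74 in wildtype replicates 1 to 5. It read 75.5, 73.1, 81.2, 41.2 and 95.1 in mutant replicates 1 to 5. Every mutant pool was above every wildtype pool, with mutant replicate 4 the lowest of them. The 3 control probe sets for a bacterial transcript (TrpnX), which report signal without mouse RNA, ranged from 0.317 to 8.52 over all arrays, and 3 of the 5 wildtype Gnb1 values lay at or below that highest value.

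**Figure D1:**
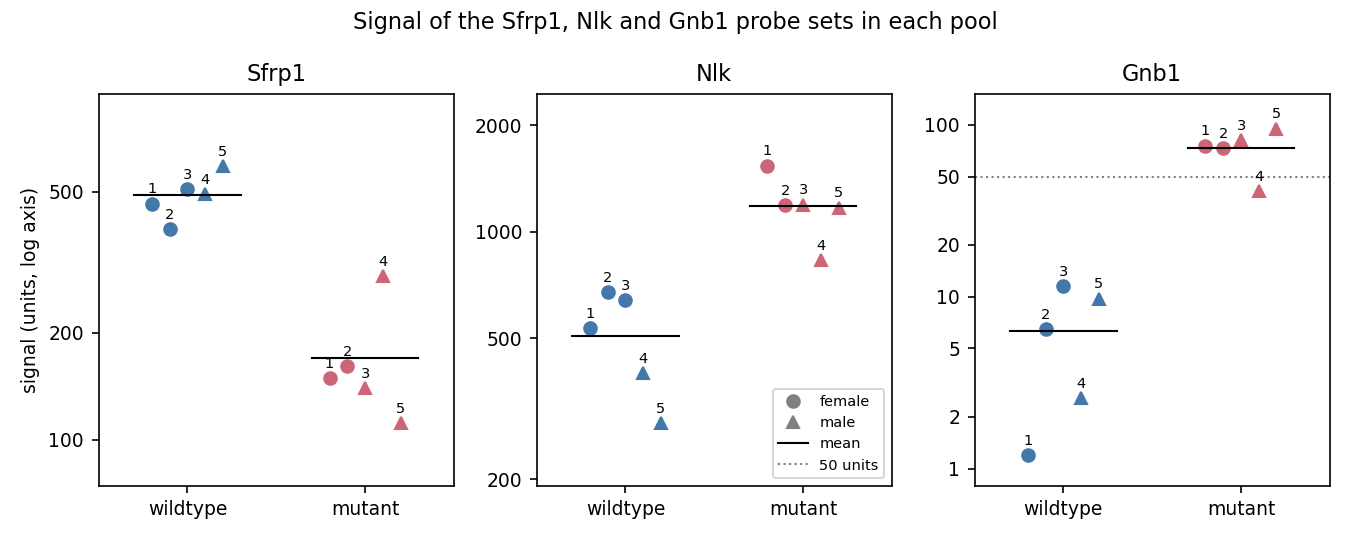
Signal of the Sfrp1, Nlk and Gnb1 probe sets (signal units, log axis) in each wildtype and mutant pool, labelled by replicate number, with circles for female pools, triangles for male pools, bars for group means and a dotted line at 50 units in the Gnb1 panel. In all 3 panels the groups do not overlap and replicate 4 is the mutant point closest to the wildtype points.

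Because of that dim wildtype signal, the size of the Gnb1 difference has no fixed value. Means were 6.29 ± 4.44 and 73.2 ± 19.8 (SD, n = 5 each), and the log2(signal + 16) difference was 2.00 ± 0.19 (SE), or 2.13 without mutant replicate 4, 1.92 without mutant replicate 5, 2.08 without both and 2.07 without wildtype replicate 3. With pseudocount 1 in place of 16 it was 3.58, and with 64 it was 0.96. All 5 wildtype pools and mutant replicate 4 read under 50 units. With wildtype values set to 50 and mutant values kept as read, the mutant mean (70.6 as a geometric mean) was 1.41-fold higher. This is not a strict lower bound, since mutant replicate 4 also read under 50 and was kept at 41.2. The Sfrp1 and Nlk values, all well over 50, moved far less with the pseudocount, from -1.62 to -1.31 for Sfrp1 and from 1.38 to 1.27 for Nlk between pseudocounts 1 and 64.

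In the fit across all probe sets (limma, Benjamini-Hochberg adjusted p under 0.05), 3 of the 3 probe sets were called, as were 0.535% of all probe sets. The groups of pools did not overlap at 3 of 3, and at 3.07% of all probe sets. The choice of the genes by this contrast fixes both counts, and nothing is read from them.

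The authors' deposited table gave its own summary of the same arrays. In the authors' deposited table Sfrp1 stood at 1331 in wildtype and 404 in mutant, with a listed fold change of 3.53, lower in the mutant. Nlk stood there at 810 and 2077, with a listed fold change of 2.59, the nearest of the 3 to the cut-off of 2. Gnb1 stood at 13.2 and 84.9, with a listed fold change of 6.23. Both were higher in the mutant. The listed fold changes are a separate summary by the authors and are not the exact ratios of the levels beside them. Probe sets outside the cut-off are not in that table and are unnamed here. The Gnb1 fold from the authors' deposited table (log2 2.64) lay between the values at pseudocounts 1 and 16, while that of Sfrp1 (log2 -1.82) was larger than at any pseudocount tried.

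**Figure D2:**
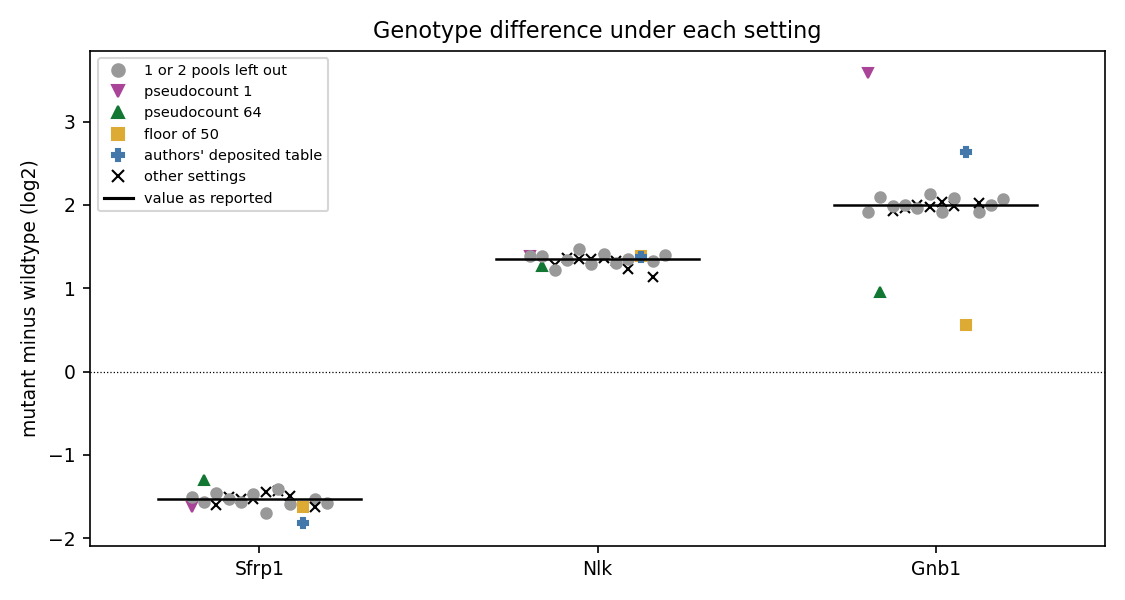
Genotype difference (log2, mutant minus wildtype) of the Sfrp1, Nlk and Gnb1 probe sets under each processing setting, with a bar for the value as reported. Sfrp1 values stay between -1.82 and -1.31 and Nlk values between 1.13 and 1.48, while Gnb1 values run from 0.56 with the floor of 50 to 3.58 with pseudocount 1.

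Pools varied more at these probe sets than at most others of like level. The residual SD of Sfrp1 was 0.38 log2 units, larger than at 95.3% of the 7651 probe sets with a mean log2(signal + 16) within 1 unit of its own. For Nlk it was 0.27, larger than at 91.6% of 4519 such probe sets, and for Gnb1 0.35, larger than at 79.4% of 20339. The place of each mutant pool was put on a scale running from 0, the average of the remaining mutant pools, to 1, the average of wildtype. Mutant replicate 4 lay at 0.43 for Sfrp1, 0.58 for Nlk and 0.53 for Gnb1, beside a median of 0.38 over the whole table. Mutant replicate 5 lay farthest from wildtype for Sfrp1 (-0.24) and Gnb1 (-0.45) but not for Nlk (0.03), where mutant replicate 1 did (-0.75). The part of the higher actin ratio of replicate 5 in these values was not tested.

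Sex was not used in the choice, so it was tested. Nlk read lower in male pools: in wildtype, 3 female pools ranged from 535 to 674 and 2 male pools from 288 to 399, with no overlap. So few pools can separate without a sex difference, and the share of all probe sets that do so was not counted. In mutants, females ranged from 1192 to 1537 and males from 830 to 1193, and the ranges just overlapped. The male minus female difference with genotype as a term was -0.59 ± 0.16 on the log2 scale (SE, 95% interval -0.94 to -0.24). It did not pass across all probe sets (limma, unadjusted p = 0.00325, adjusted p = 0.966), where 2212 probe sets had an unadjusted p under 0.05. An exact permutation test of the sex labels within each genotype (100 arrangements, two-sided, smallest possible p 0.01) gave p = 0.02 for Nlk, not adjusted for the number of probe sets.

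For Sfrp1 the sex difference was 0.17 ± 0.21 (95% interval -0.28 to 0.62, limma adjusted p = 0.977, exact permutation p = 0.57). The Gnb1 sex difference was -0.05 ± 0.19 (95% interval -0.47 to 0.38, limma adjusted p = 0.994, exact permutation p = 0.89). None of the 3 probe sets was called for sex, beside 0.0266% of all probe sets.

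The genotype difference had the same direction in both sexes at all 3 probe sets, which groups that do not overlap already fix. Sfrp1 differed by -1.45 ± 0.30 in females and -1.61 ± 0.30 in males (SE). Nlk differed by 1.12 ± 0.21 in females and 1.59 ± 0.21 in males, and Gnb1 by 2.04 ± 0.29 and 1.96 ± 0.29.

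The difference between the sexes in that effect, males minus females, was tested. It was 0.47 for Nlk (95% interval -0.20 to 1.14, limma adjusted p = 0.999, exact permutation p = 0.44). It was -0.16 for Sfrp1 (95% interval -1.12 to 0.80, limma adjusted p = 0.999, exact permutation p = 0.83). For Gnb1 it was -0.08 (95% interval -0.99 to 0.83, limma adjusted p = 0.999, exact permutation p = 0.88). The permutation shuffled sex labels within each genotype. Its null is no sex difference in either genotype, so it is not an exact test of this difference alone. Limma called 0 probe sets of the whole array, 0% of those tested, for this difference, with 1744 at an unadjusted p under 0.05.

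**Figure D3:**
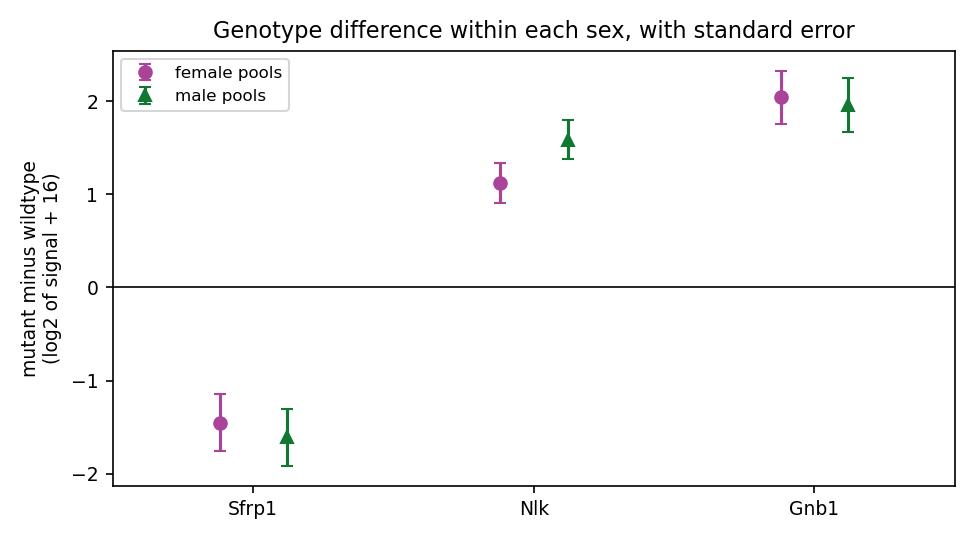
Genotype difference (log2 of signal + 16, mutant minus wildtype) of Sfrp1, Nlk and Gnb1 in female pools (circles) and male pools (triangles), with standard errors. Both sexes lie on the same side of 0 for each gene, and the sexes are farthest apart for Nlk (1.12 and 1.59).

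The probe sets differ in how much of the gene they align to. In the deposited table Sfrp1 aligned to chromosome 8 at 24521972 to 24559239 on the plus strand, Nlk to chromosome 11 at 78381504 to 78510925 on the minus strand and Gnb1 to chromosome 4 at 154927385 to 154929970 on the plus strand. The table does not name its build, and its positions are not those of GRCm38.p6. The alignments span 37.3 kb for Sfrp1 and 129 kb for Nlk, which is 97.4% and 99.2% of the length of the RefSeq gene. The Gnb1 alignment spans 2.59 kb, or 3.80% of a gene of 68.0 kb. Whether that stretch is exonic, intronic or untranslated could not be read without a genome of that build. Each value describes 1 probe set, and other probe sets of these genes may be on the array without a name here.

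Other listed probe sets lay close to Gnb1, and none lay within 5 Mb of Sfrp1 or Nlk. Near Gnb1 there were 5, for 4 genes. Ssu72, a phosphatase of the RNA polymerase II tail that starts 0.165 Mb away, was also dim in wildtype and higher in the mutant, at 9.25 ± 4.41 and 52.1 ± 11.3 (SD, n = 5 each). The other 4 were lower in the mutant. C1qtnf12, a secreted protein of the C1q and tumour necrosis factor family, 0.413 Mb away, went from 145 ± 9.69 to 53.9 ± 16.1. B3galt6, a galactosyltransferase of proteoglycan linker synthesis, went from 50.8 ± 4.64 to 19.6 ± 6.14 at one probe set and from 67.0 ± 11.7 to 13.6 ± 11.4 at another, 0.436 and 0.437 Mb away. Prdm16, a zinc-finger transcriptional regulator 1.23 Mb away on the other side, went from 86.1 ± 7.82 to 21.6 ± 18.6. Among mutant pools, replicate 4 read closest to wildtype at Gnb1, Prdm16, C1qtnf12 and both B3galt6 probe sets. The alignments of all 5 covered a minor share of the RefSeq gene length, from 2.62% for Ssu72 to 19.7% for one B3galt6 probe set, beside 3.80% for Gnb1. At Ssu72 replicate 4 read 54.7, inside the range of 35.3 to 66.4 of the other mutant pools. All 5 were listed on the same contrast as Gnb1, so their number near it is a description.

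**Figure D4:**
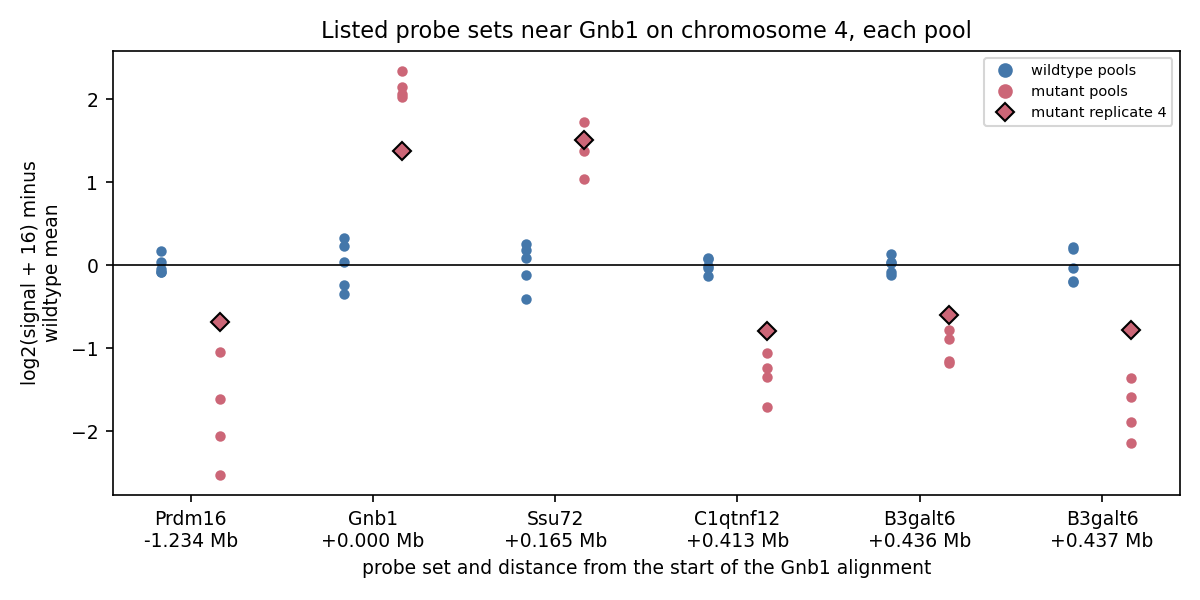
log2(signal + 16) minus the wildtype mean in each pool for Gnb1 and the 5 listed probe sets within 5 Mb of it on chromosome 4, ordered by distance from the start of the Gnb1 alignment, with wildtype and mutant pools side by side and a diamond for mutant replicate 4. Gnb1 and Ssu72 lie above 0 in mutant pools and the other 4 probe sets below it.

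Of 98 genes on 6 lists of Wnt ligands and receptors, secreted Wnt inhibitors, intracellular Wnt components, Wnt targets, G protein subunits and G protein partners, only Sfrp1, Nlk and Gnb1 had a named probe set. The levels of the other 95 were therefore not read, and the 3 values do not describe their pathways. By the table's own annotation, a Wnt term was given to 1 further listed gene, Mbd2, a methyl-CpG-binding protein, which was picked after its values were seen. Part of the annotation could not be read at 8 listed probe sets, so this search may be incomplete. Its probe set 1441388_at was dim, at 6.31 ± 2.88 in wildtype and 30.4 ± 11.3 in the mutant (SD, n = 5 each).

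The listed genes with the most similar profile were found by the root mean square difference of log2(signal + 16) over the 10 pools, each profile centred on its own mean, among 63 singly named probe sets of other genes. Nearest to Sfrp1 were Adat2, a tRNA adenosine deaminase (0.18 log2 units), the transcript 4833420G17Rik (0.21) and C1qtnf12 (0.26). Nearest to Nlk were Fstl5 (0.22), Tiparp, an ADP-ribosyltransferase (0.23), and the small GTPase Rap2b (0.30). Nearest to Gnb1 were the mitochondrial thiolase Acaa2 (0.30), the aldo-keto reductase Akr1b8 (0.32) and the cyclin Ccnd2 (0.35). Between the genes themselves, the difference was 0.55 for Nlk and Gnb1. With its sign turned, Sfrp1 stood 0.33 from Nlk and 0.37 from Gnb1. All of these were listed on 1 contrast over the same pools, and the genotype step takes up most of each profile.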

How the data were processed

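Each wildtype and mutant pool was hybridised as biotin-labelled cRNA to an Affymetrix Mouse430_2 array, per the labels and file headers. The deposited values are linear intensities, 1 for each probe set on each array. The summarising software was not given in the sources used here, and every array had a trimmed mean of 150 units, the form of global scaling. The authors' deposited table gives, per the file headers, an intensity for each genotype and a fold change, as an absolute value and on the log2 scale. That fold change is not the exact ratio of the intensities given. It was the only source of names, updated through Entrez numbers with RefSeq.

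Intensities were fitted as log2(value + 16) with limma 3.58.1 (R 4.3.3) on all 45037 non-control probe sets, with genotype and sex as terms, or 1 mean per genotype and sex. P-values are 2-sided, Benjamini-Hochberg adjusted. The fit was tested on simulated data. Replicate numbers are shared between genotypes, and the main fit did not treat same-numbered pools as pairs. Their deviations correlated between -0.129 and 0.0724. The genes, lists and settings were chosen with earlier results of these data known. Named besides the 3 genes were the 3 nearest profiles per gene and listed neighbours within 5 Mb. The other listed probe sets placed on chromosome 4 were added later.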

Additional observations from a re-analysis of the deposited data

Results flagged for a closer look

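In 36 groups of 5 pools, 1 pool lay far from the other 4 in 5 groups by Dixon's test, where chance gives about 1 in 20 for groups that are independent, which these are not. Sfrp1 stood at 289 in replicate 4 of the mutant group, while the rest of that group lay between 111 and 161. Adat2 and 4833420G17Rik were picked because their profile over the same pools was like that of Sfrp1, so the same pool standing apart there is built in. Both are among the 5 groups counted, and they add no separate evidence. Adat2 read 154, against 69.4 to 81.5, and 4833420G17Rik read 60.7, against 18.1 to 24.2. Mutant replicate 1 stood apart at Dlx6os1 (58.1, against 9.47 to 16.5) and at Rap2b (223, against 138 to 161), which was picked for its likeness to Nlk. None of the Nlk or Gnb1 groups was marked by this test.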

How the results depend on the processing

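The genotype difference kept its direction in all settings tried at all 3 probe sets, and its size stayed within the spread between pools for Sfrp1 and Nlk. For Gnb1 it moved to 3.58 with pseudocount 1, 0.96 with pseudocount 64, 0.56 with values under 50 set to 50, and 2.64 in the authors' deposited table. Leaving out mutant replicates 4 and 5 together was added after seeing the data. The small sex difference of Gnb1 turned to 0.033 without both of these pools and ran from -0.15 to 0.088 over single pools left out, and that of Sfrp1 turned to -0.32 with the replicate block. The difference between sexes in the genotype effect turned to 0.11 for Gnb1 without both pools and ran from -0.31 to 0.21 over single pools left out (Sfrp1 from -0.53 to 0.10). The Nlk sex difference of -0.59 passed as an unadjusted p, by limma and by exact permutation. It passed in no setting after adjustment over all probe sets, and with the replicate block it was -0.44 ± 0.43 (SE). Only replicate 3 differs in sex between the genotypes. Every sex value with the replicate block, also that of Sfrp1, therefore rests on that pair of pools. Over all probe sets the 241 genotype calls became 55 with pseudocount 1, 375 with array weights, 39 with the replicate block, 41 with the floor of 50, and 72 to 259 over single pools left out (133, 96 and 108 without wildtype replicates 2, 4 and 5, and 72, 141 and 140 without mutant replicates 1, 2 and 3). The 12 sex calls became 2 with the replicate block. Of the 3 probe sets, only Nlk was called for genotype with pseudocount 1, only Gnb1 with the replicate block, and none with the floor of 50. As the genes were chosen on this contrast, nothing is read from the calls. The shared replicate numbers showed no pairing of the pools: 0 of 5 correlated best with their own number. With 5 pools per genotype, this check cannot settle whether same-numbered pools were handled together. A filter on mean signal over 50 left no Gnb1 value. The causes were not tested.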
